A study of Mus musculus with 12 samples.

Results

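The 37 genes described here encode matrix proteins other than collagens, their cross-linking enzymes, and surface and contractile proteins of fibroblasts. They were taken by symbol from the deposited count table of a mouse melanoma study, and all 37 were found among its 55487 gene identifiers and passed the filter on low counts. Bulk RNA was sequenced from 12 melanoma tumors of the mouse, 6 of each genotype. All 12 carried the BrafCA allele, a Cre-dependent oncogenic form of the kinase gene Braf, and floxed alleles of the tumor suppressor Cdkn2a (Cdkn2af/f). The 6 Arf6-null tumors also carried floxed alleles of Arf6 (Arf6f/f), which encodes a small GTPase of endosomal traffic, and the 6 wild-type tumors did not. The comparison asks what differs in tumors that lack Arf6. The labels of the samples do not name the driver of Cre, the age or the sex of the animals, or whether each tumor is from its own animal. A p-value here is therefore set against the spread among the samples, which may in part be technical.

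Fibroblasts build the space between cells. Elastin is laid down on a scaffold of fibrillin microfibrils with the help of fibulins and is then cross-linked by lysyl oxidases, which also cross-link collagen. Small leucine-rich proteoglycans such as decorin bind collagen fibrils and set their spacing, and matricellular proteins such as periostin, tenascin and the thrombospondins modulate how cells attach. In tumors these genes are commonly expressed by cancer-associated fibroblasts, and some of them also by tumor cells of mesenchymal character. In bulk tissue fewer cells of a type and less RNA per cell cannot be told apart.

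Some facts of the libraries bear on every result. Totals lay between 21007954 and 45688253 counts, and no member had fewer than 24 counts in a library. Arf6 was at 84.2 to 147 CPM (a count scaled to a common library size) in wild-type tumors, against 12.2 to 22.5 CPM where it was deleted. Wild-type libraries were numbered 1 to 6 and Arf6-null libraries 19 to 24, so that genotype and any round of preparation cannot be told apart. The skeletal muscle list summed to 2978, 2067 and 4123 CPM in wild-type replicates 3, 4 and 5, and to between 18.6 and 296 CPM in the other 9 tumors. A list of 4 Y-linked genes summed to 0, 11.3 and 248 CPM (lowest, median, highest) in wild-type and to 0.444, 193 and 218 CPM in Arf6-null tumors. This sum, on a log2 scale, is the Y-linked covariate used below. Of 12 melanocyte genes only 4 could be tested, Mlana had no count in any library, and Tyr and Dct had at most 2 and 1 counts.

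Most of the matrix genes had lower values in Arf6-null tumors, and 1 of them, the elastin gene Eln, passed the test over all genes. By edgeR's quasi-likelihood test Eln was lower and no member was higher at an adjusted p under 0.05, against 1.15% of all 16225 tested genes called in either direction, 0.561% called lower and 0.586% called higher. The log2 fold change, Arf6-null over wild type, was negative for 34 of 37 members, against 52.8% of all tested genes. In the alternative fits that held all 37 it was negative for 30 to 34, and 7 members with small or variable differences changed sign in at least 1 of them (Sparc, Efemp2, Vcan, Mfap5, Prelp, Fap and Tagln). Its median over the members was -0.93, and over all tested genes it was -0.03. Without adjustment, 15 members had an edgeR p under 0.05 with a lower value and 0 with a higher one. The background for these counts was 12.4% of all tested genes lower and 11% higher. The 15 comprised 5 of 11 elastic fiber genes, 4 of 5 cross-linking and processing genes, 2 of 7 proteoglycan genes, 2 of 9 adhesive and matricellular genes and 2 of 5 surface and contractile genes. The positive values belonged to Thbs1, Thy1 and Thbs2. DESeq2 called 10 members, all lower, and in either direction it called 11% of the genes to which it gave an adjusted p. No member was called with Y-linked expression as a covariate, without the 3 muscle-rich wild-type libraries, or with the muscle level as a covariate, and 12 members then had an unadjusted p under 0.05 with a lower value in each of these fits. The share of all genes that were lower at an unadjusted p was 9.31%, 7.85% and 7.72% in the same 3 fits.

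**Figure D1:**
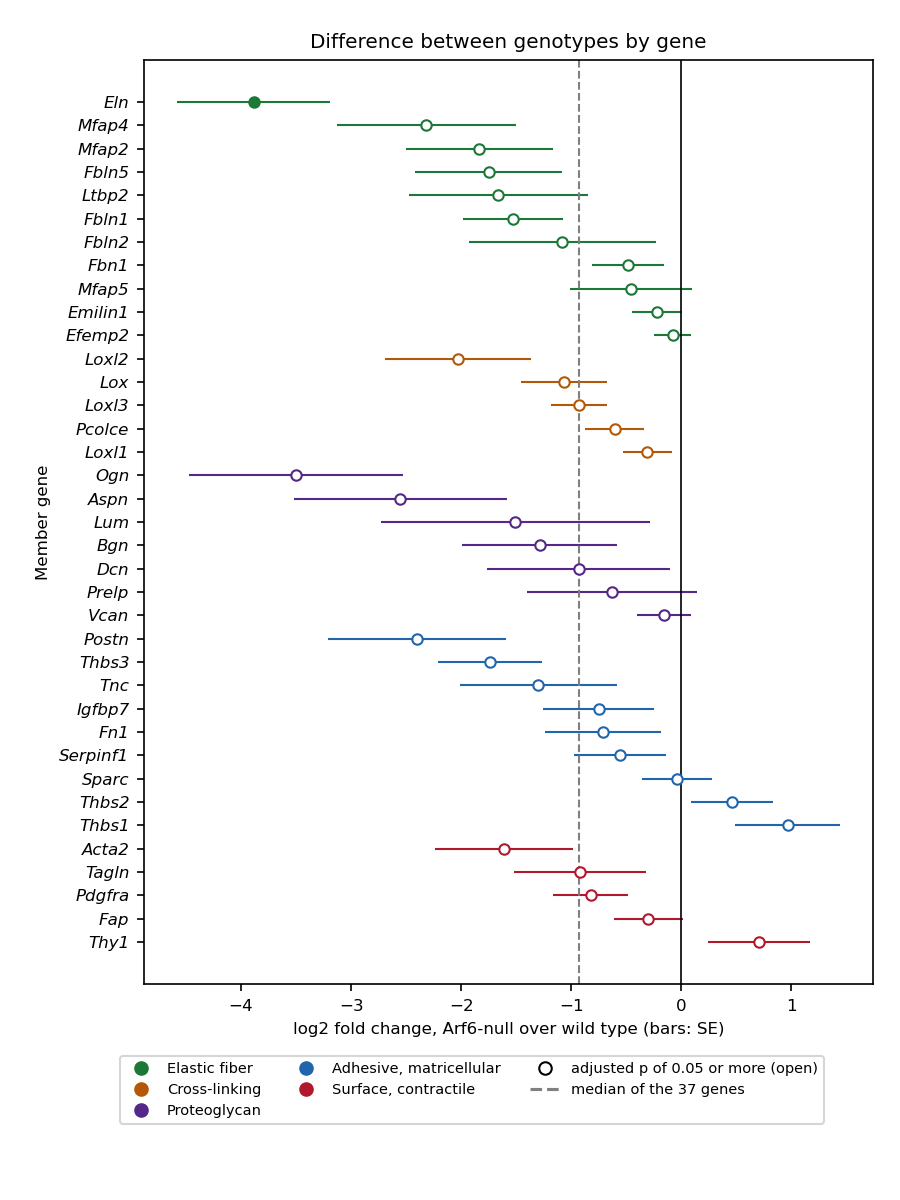
Log2 fold change (horizontal axis, Arf6-null over wild type, edgeR) of the 37 genes (vertical axis) by class, n = 6 tumors each. Bars are standard errors, the filled point is the gene with an adjusted p under 0.05, Eln at -3.88, and the dashed line is the median of the genes at -0.93.

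Elastic fiber genes. Eln, on chromosome 5 at 134702593 to 134747323 of GRCm38, encodes tropoelastin, the soluble precursor of elastin. It was at 46.8, 182 and 579.6 CPM (lowest, median, highest) in the wild-type tumors, against 3.0, 15.7 and 30.7 CPM where Arf6 was deleted. Every Arf6-null tumor lay below every wild-type tumor. Ranges that did not overlap, with the Arf6-null tumors below, were found for 1.21% of all tested genes and, among the 37 members, for Eln alone. The means were 244 ± 207 CPM and 16.5 ± 9.42 CPM (SD, n = 6 each), a 14.8-fold difference, with a log2 fold change of -3.88 (with SE 0.70; adjusted p = 0.0292 in edgeR). The call was kept in 5 of the 12 fits that left out 1 library, with adjusted p from 0.0166 to 0.0715, and the log2 fold change stayed between -4.16 and -3.42. It was lost without wild-type replicate 1, 3, 4 or 6 and without Arf6-null replicate 1, 2 or 3. Its highest values were 579.6 CPM in wild-type replicate 1, which was low in muscle genes, and 388 and 249 CPM in replicates 3 and 4, which were rich in them, and its lowest wild-type value, 46.8 CPM, was in the muscle-rich replicate 5. Without the 3 muscle-rich wild-type libraries the log2 fold change was -3.96 (edgeR adjusted p = 0.0852). The part of muscle tissue in the values of Eln was not tested.

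Fbn1 encodes fibrillin-1, the main protein of the microfibrils on which elastin is deposited. It was at 306, 393 and 787 CPM in wild-type tumors, against 159, 333 and 594 CPM where Arf6 was deleted, and the genotypes overlapped broadly (log2 fold change -0.48 with SE 0.33; adjusted p = 0.395 in edgeR). For each read of Eln there were 0.528 to 9.46 reads of Fbn1 in wild-type tumors and 16.7 to 53.0 in Arf6-null tumors. This ratio was looked at after the values were seen and is a description.

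Fbln1 encodes fibulin-1, which is found in elastic fibers and basement membranes. It was at 68.1, 171 and 390.1 CPM in wild-type tumors, against 25.3, 77.2 and 115 CPM where Arf6 was deleted (log2 fold change -1.53 with SE 0.45; adjusted p = 0.0831 in edgeR). The lowest wild-type tumor, replicate 5, lay inside the Arf6-null range. Mfap4, which encodes a microfibril-associated glycoprotein that binds tropoelastin, was at 16.3, 168 and 312 CPM in wild-type tumors, against 5.84, 15.8 and 99.5 CPM where Arf6 was deleted (log2 fold change -2.32 with SE 0.81; adjusted p = 0.123 in edgeR). Wild-type replicates 2 and 5 were low for Mfap4, and Arf6-null replicate 6 was the highest of its genotype. Mfap4 shares exonic sequence with Mapk7 on the other strand, and no source used here says whether the counter took strand into account.

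The other elastic fiber genes spanned a wide range of differences. Log2 fold changes were -1.84 for Mfap2, -1.75 for Fbln5, -1.66 for Ltbp2, -1.08 for Fbln2 and -0.46 for Mfap5, none with an edgeR adjusted p under 0.05. Mfap2 and Mfap5 encode small microfibril glycoproteins, Fbln5 a fibulin needed for elastic fiber assembly, and Ltbp2 a protein related to latent TGF-beta binding proteins. Emilin1, an elastin-associated glycoprotein, and Efemp2, which encodes fibulin-4, had the smallest differences, at -0.22 and -0.08. Without wild-type replicate 6 the values of Efemp2 and Mfap5 were positive, at 0.068 and 0.094. Efemp2 varied by 1.85-fold among wild-type and by 1.6-fold among Arf6-null tumors, from 112.6 to 231 CPM over all 12. Ltbp2, in contrast, varied by 36.6-fold among the wild-type tumors.

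**Figure D2:**
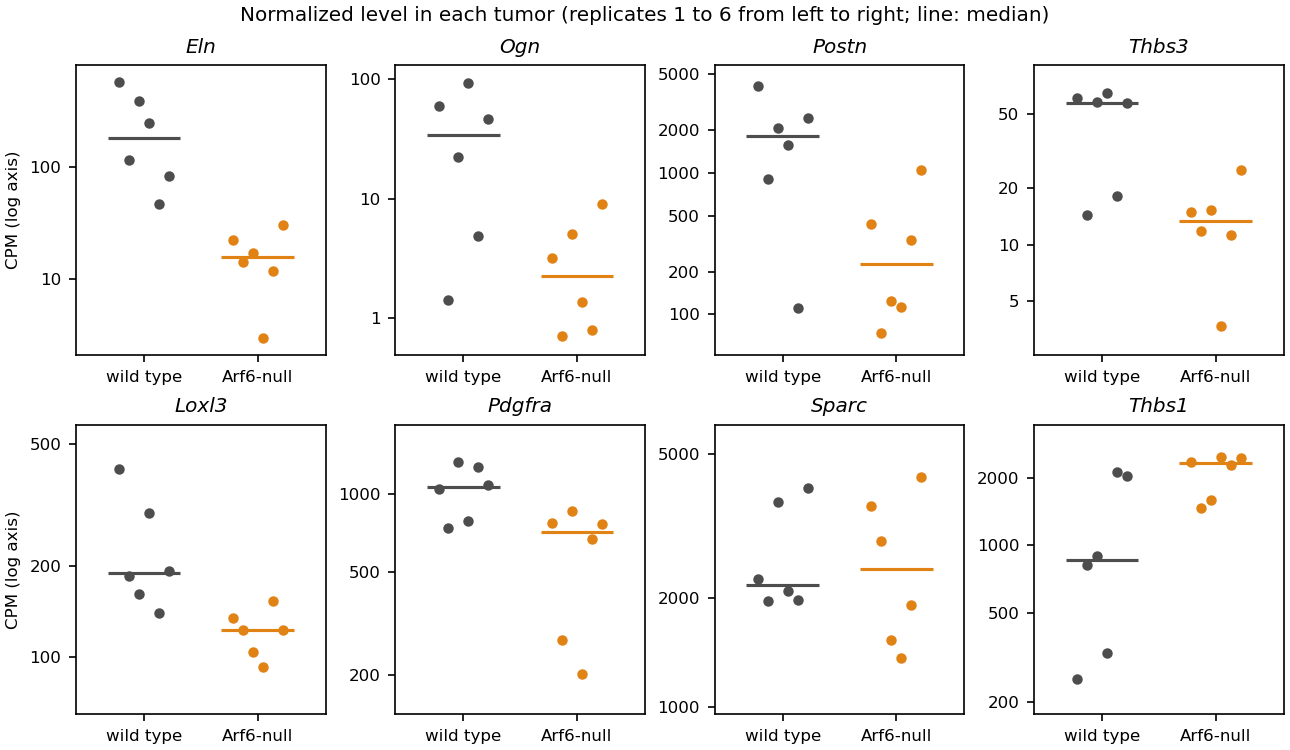
CPM of 8 genes in each tumor (vertical log axis) by genotype (horizontal axis). Points are tumors, replicates 1 to 6 from left to right, and lines are medians. Ranges are separate for Eln, with 46.8 CPM as the lowest wild-type and 30.7 CPM as the highest Arf6-null value, and overlap for the other 7 genes.

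Cross-linking and collagen processing genes. All 5 had negative log2 fold changes and none passed the test. Loxl3, a lysyl oxidase-like enzyme, was at 139.8, 189 and 415 CPM in wild-type tumors, against 92.9, 123 and 153 CPM where Arf6 was deleted (log2 fold change -0.93 with SE 0.25; adjusted p = 0.0720 in edgeR). The overlap came from wild-type replicate 5, at 139.8 CPM, and Arf6-null replicate 5, at 153 CPM. Loxl3 shares exonic sequence with Htra2 on the other strand.

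Loxl2, whose product cross-links collagen IV and fibrillar collagens, was at 7.95, 64.5 and 205 CPM in wild-type tumors, against 3.43, 19.8 and 39.9 CPM where Arf6 was deleted (log2 fold change -2.03 with SE 0.66; adjusted p = 0.106 in edgeR). The wild-type tumors without replicate 5 were all above the Arf6-null tumors. Lox, the founding member of the family, was at 54.2, 144 and 249 CPM in wild-type tumors, against 26.2, 74.4 and 113 CPM where Arf6 was deleted (log2 fold change -1.06 with SE 0.39; adjusted p = 0.137 in edgeR). Loxl1, which acts on elastin, was the steadiest enzyme among wild-type tumors, varying by 1.44-fold, and had a log2 fold change of -0.31 (SE 0.22). Pcolce encodes an enhancer of procollagen C-proteinase and had a log2 fold change of -0.60 (with SE 0.27; adjusted p = 0.203 in edgeR).

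Proteoglycan genes. All 7 had negative log2 fold changes, from -3.50 for Ogn to -0.16 for Vcan, and none passed the test. With the muscle level as a covariate those of Prelp and Vcan were positive, at 0.58 and 0.010. Ogn encodes osteoglycin (mimecan), and Aspn encodes asporin, both small leucine-rich proteins of connective tissue. Ogn was at 1.42, 34.3 and 93.4 CPM in wild-type tumors, against 0.701, 2.26 and 9.02 CPM where Arf6 was deleted (log2 fold change -3.50 with SE 0.97; adjusted p = 0.0735 in edgeR). Aspn was at 17.2, 185 and 265 CPM in wild-type tumors, against 1.45, 11.0 and 91.5 CPM where Arf6 was deleted (log2 fold change -2.55 with SE 0.97; adjusted p = 0.146 in edgeR). Wild-type replicates 2 and 5 were low for both genes and lay inside the Arf6-null ranges.

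Aspn and Ogn are neighbors on chromosome 13, at 49544443 to 49567565 and 49608046 to 49624501 of GRCm38. The same stretch holds Ecm2 at 49504810 to 49532789 and Omd at 49582462 to 49592822, both of which encode leucine-rich matrix proteins. Ecm2 was at 11.2 ± 6.99 CPM in wild-type tumors, against 1.93 ± 1.42 CPM where Arf6 was deleted (log2 fold change -2.52, edgeR adjusted p = 0.0544), and Omd at 3.57 ± 2.88 and 1.64 ± 1.49 CPM (log2 fold change -1.12, edgeR adjusted p = 0.406; SD, n = 6 each). Aspn shares exonic sequence with Cenpp on the other strand. The 250 bases before the annotated starts of Aspn (chr13:49544193-49544442) and Ogn (chr13:49607765-49608014) are shown because these neighbors had the largest differences of the class. They are on the plus strand, from RefSeq on GRCm38.p6, with TATAAA on either strand in capitals.
Aspn: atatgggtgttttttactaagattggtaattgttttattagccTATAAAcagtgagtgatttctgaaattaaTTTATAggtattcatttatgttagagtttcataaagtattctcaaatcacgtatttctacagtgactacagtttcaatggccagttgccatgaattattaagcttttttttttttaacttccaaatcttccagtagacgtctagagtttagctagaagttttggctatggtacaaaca
Ogn: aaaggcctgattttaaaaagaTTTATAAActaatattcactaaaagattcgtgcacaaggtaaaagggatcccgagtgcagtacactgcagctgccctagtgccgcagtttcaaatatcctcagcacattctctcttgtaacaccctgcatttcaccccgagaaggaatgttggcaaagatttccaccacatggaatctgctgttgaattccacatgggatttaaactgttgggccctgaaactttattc
The match nearest to the start ends at base -173 in Aspn and at base -222 in Ogn, and in Ogn the matches on both strands overlap.

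Bgn and Dcn encode biglycan and decorin, close relatives that bind collagen and growth factors. Bgn was at 562, 1208 and 3055 CPM in wild-type tumors, against 35.6, 569 and 1277 CPM where Arf6 was deleted (log2 fold change -1.28 with SE 0.70; adjusted p = 0.291 in edgeR). Dcn was at 189.9, 482 and 2544 CPM in wild-type tumors, against 66.0, 219.9 and 1889 CPM where Arf6 was deleted (log2 fold change -0.93 with SE 0.83; adjusted p = 0.528 in edgeR). Lum, which encodes lumican, lies next to Dcn on chromosome 10 and varied by 27.9-fold among wild-type and by 171-fold among Arf6-null tumors, the widest spread of any member in the latter (log2 fold change -1.51, SE 1.22). The differences of Dcn and Lum moved with single tumors. Without wild-type replicate 1 the log2 fold changes were -0.31 and -0.46, and without Arf6-null replicate 3 they were -2.18 and -3.47. Prelp encodes a leucine-rich protein that anchors basement membrane to connective tissue, and Vcan encodes versican, a large proteoglycan that binds hyaluronan. Their log2 fold changes were -0.63 (SE 0.77) and -0.16 (SE 0.24), and Vcan varied by no more than 2.32-fold within a genotype.

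Adhesive and matricellular genes. Of 9 genes, 7 had negative and 2 positive log2 fold changes, and none passed the test. Postn encodes periostin, which links collagen, fibronectin and tenascin. It was at 110.4, 1820.1 and 4127 CPM in wild-type tumors, against 73.8, 229 and 1053 CPM where Arf6 was deleted (log2 fold change -2.40 with SE 0.81; adjusted p = 0.113 in edgeR). Wild-type replicate 5 was the low wild-type tumor, and Arf6-null replicate 6 the high Arf6-null tumor. Tnc, which encodes tenascin-C, was at 75.3, 607 and 1229 CPM in wild-type tumors, against 74.3, 219 and 632 CPM where Arf6 was deleted (log2 fold change -1.30 with SE 0.72; adjusted p = 0.294 in edgeR).

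Fn1 encodes fibronectin, on which other matrix proteins assemble. It was at 1789.6, 3966 and 4885 CPM in wild-type tumors, against 430.3, 2013 and 4809.8 CPM where Arf6 was deleted (log2 fold change -0.71 with SE 0.53; adjusted p = 0.441 in edgeR). Arf6-null replicates 3 and 4 were low, and Arf6-null replicate 5 was close to the highest wild-type tumor. Sparc encodes osteonectin, a collagen-binding glycoprotein, and was at 1967, 2177 and 4031 CPM in wild-type tumors, against 1369, 2406 and 4319 CPM where Arf6 was deleted. Its log2 fold change of -0.04 (with SE 0.32; adjusted p = 0.957 in edgeR) changed sign in 6 of 21 alternative fits. Igfbp7 and Serpinf1, which encode a secreted insulin-like growth factor binding protein and the anti-angiogenic factor PEDF, had log2 fold changes of -0.75 and -0.55 with edgeR adjusted p of 0.388 and 0.449. Igfbp7 shares exonic sequence with Polr2b on the other strand.

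The thrombospondin genes had values in both directions. Thbs1, whose product binds CD36 and CD47 and can activate latent TGF-beta, was at 253, 860.1 and 2116 CPM in wild-type tumors, against 1470.5, 2319 and 2466 CPM where Arf6 was deleted (log2 fold change 0.97 with SE 0.47; adjusted p = 0.241 in edgeR). Wild-type replicates 5 and 6 lay inside the Arf6-null range, and the other 4 wild-type tumors lay below it. Thbs2, whose product is the closest relative of thrombospondin-1, was at 460.3, 1545 and 2107 CPM in wild-type tumors, against 933, 1859 and 3444 CPM where Arf6 was deleted (log2 fold change 0.46 with SE 0.37; adjusted p = 0.480 in edgeR).
Thbs3 encodes a thrombospondin of the pentameric kind and was at 14.3, 57.6 and 65.2 CPM in wild-type tumors, against 3.67, 13.3 and 25.2 CPM where Arf6 was deleted (log2 fold change -1.74 with SE 0.47; adjusted p = 0.0711 in edgeR). Wild-type replicates 2 and 5, at 14.3 and 18.2 CPM, lay among the Arf6-null tumors. Thbs3 shares exonic sequence with Mtx1 on the other strand, which had 14454 counts in all against 10327 for Thbs3.

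The bases before the starts of Thbs2, Thbs3 and Postn are shown because these matricellular genes had log2 fold changes of opposite sign. Each window holds 250 bases, from RefSeq on GRCm38.p6 and read along the strand of the gene, with TATAAA and GGGCGG on either strand in capitals. Thbs2 (chr17:14694263-14694512) is on the minus strand, and Thbs3 (chr3:89214930-89215179) and the second listed start of Postn (chr3:54360857-54361106) are on the plus strand.
Thbs2: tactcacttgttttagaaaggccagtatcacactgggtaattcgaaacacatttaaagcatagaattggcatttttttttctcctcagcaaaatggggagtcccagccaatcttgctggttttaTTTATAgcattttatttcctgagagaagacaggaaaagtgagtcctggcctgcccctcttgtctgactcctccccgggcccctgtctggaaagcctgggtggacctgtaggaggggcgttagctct
Thbs3: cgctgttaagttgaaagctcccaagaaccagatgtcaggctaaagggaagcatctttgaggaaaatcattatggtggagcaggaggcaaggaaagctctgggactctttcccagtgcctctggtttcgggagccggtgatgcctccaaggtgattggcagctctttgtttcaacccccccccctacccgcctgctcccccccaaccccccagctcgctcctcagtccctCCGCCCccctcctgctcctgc
Postn: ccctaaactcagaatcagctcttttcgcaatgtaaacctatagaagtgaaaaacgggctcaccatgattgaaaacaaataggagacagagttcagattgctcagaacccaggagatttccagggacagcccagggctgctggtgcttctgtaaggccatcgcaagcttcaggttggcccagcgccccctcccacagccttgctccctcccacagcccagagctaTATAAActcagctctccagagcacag
In the Postn window TATAAA begins 26 bases before the start, and in the Thbs3 window the match to GGGCGG on the other strand covers bases -21 to -16. RefSeq windows were matched for 23 of the 37 members, 30 windows in all. TATAAA on either strand was present in 6 of these 30 windows, from 5 genes, and in 12.4% of all 32851 windows of this length. GGGCGG was present in 16 of 30, from 13 genes, and in 32.7% of all windows. The SMAD-type element CAGACA was present in 10 of 30 and in 17.1% of all, the TEAD element GGAATG in 3 of 30 and in 12.6% of all, and the AP-1 element TGANTCA in 0 of 30 and in 6.75% of all. These are matches of letters and do not show binding.

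Surface and contractile genes. Pdgfra encodes a receptor for platelet-derived growth factor that marks fibroblasts. It was at 739, 1068 and 1329 CPM in wild-type tumors, against 201, 717 and 864 CPM where Arf6 was deleted (log2 fold change -0.82 with SE 0.34; adjusted p = 0.173 in edgeR). Wild-type replicates 2 and 4 lay within the Arf6-null range. Fap, which encodes fibroblast activation protein, a protease of activated fibroblasts, had a log2 fold change of -0.30 (SE 0.32), and Thy1, which encodes the surface protein CD90, one of 0.70 (with SE 0.46; adjusted p = 0.383 in edgeR). Thy1 ranged from 289 to 1032 CPM in wild-type and from 356 to 2902 CPM in Arf6-null tumors, with the top value in Arf6-null replicate 6.

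Acta2 and Tagln encode smooth muscle actin and transgelin, the contractile proteins of myofibroblasts, pericytes and smooth muscle. Acta2 was at 7.91, 36.1 and 85.0 CPM in wild-type tumors, against 5.03, 11.3 and 34.2 CPM where Arf6 was deleted (log2 fold change -1.61 with SE 0.63; adjusted p = 0.155 in edgeR). Tagln was at 3.11, 12.4 and 31.4 CPM in wild-type tumors, against 2.29, 7.20 and 13.7 CPM where Arf6 was deleted (log2 fold change -0.92 with SE 0.60; adjusted p = 0.379 in edgeR). It shares exonic sequence with Pcsk7 on the other strand, which had 18187 counts in all against 4025 for Tagln. Reads of Acta2 can resemble those of the skeletal actin gene Acta1. The muscle-rich wild-type replicates 3 and 4 had the top Acta2 values, 78.0 and 85.0 CPM, and the third muscle-rich tumor, replicate 5, had the lowest wild-type value, 7.91 CPM. A list of 13 pericyte and smooth muscle markers, of which 10 could be tested, summed to 274 to 697 CPM in wild-type and to 80.5 to 267 CPM in Arf6-null tumors, ranges that did not overlap. Its 3 highest sums, 545, 417 and 697 CPM, were in the muscle-rich wild-type replicates 3, 4 and 5. The list holds Des, which encodes desmin and is also expressed in skeletal muscle, with a wild-type mean of 158 CPM and a maximum of 544 CPM. Without Des, an alternative chosen after seeing the data, the sums were 153 to 387 CPM and 63.5 to 258 CPM, and the genotypes overlapped. None of the 10 passed the test and all 10 had negative log2 fold changes. Of these 10 markers 3 were lower at an unadjusted p, against 12.4% of all tested genes. Their part in the values of Acta2 and Tagln was not tested.

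**Figure D3:**
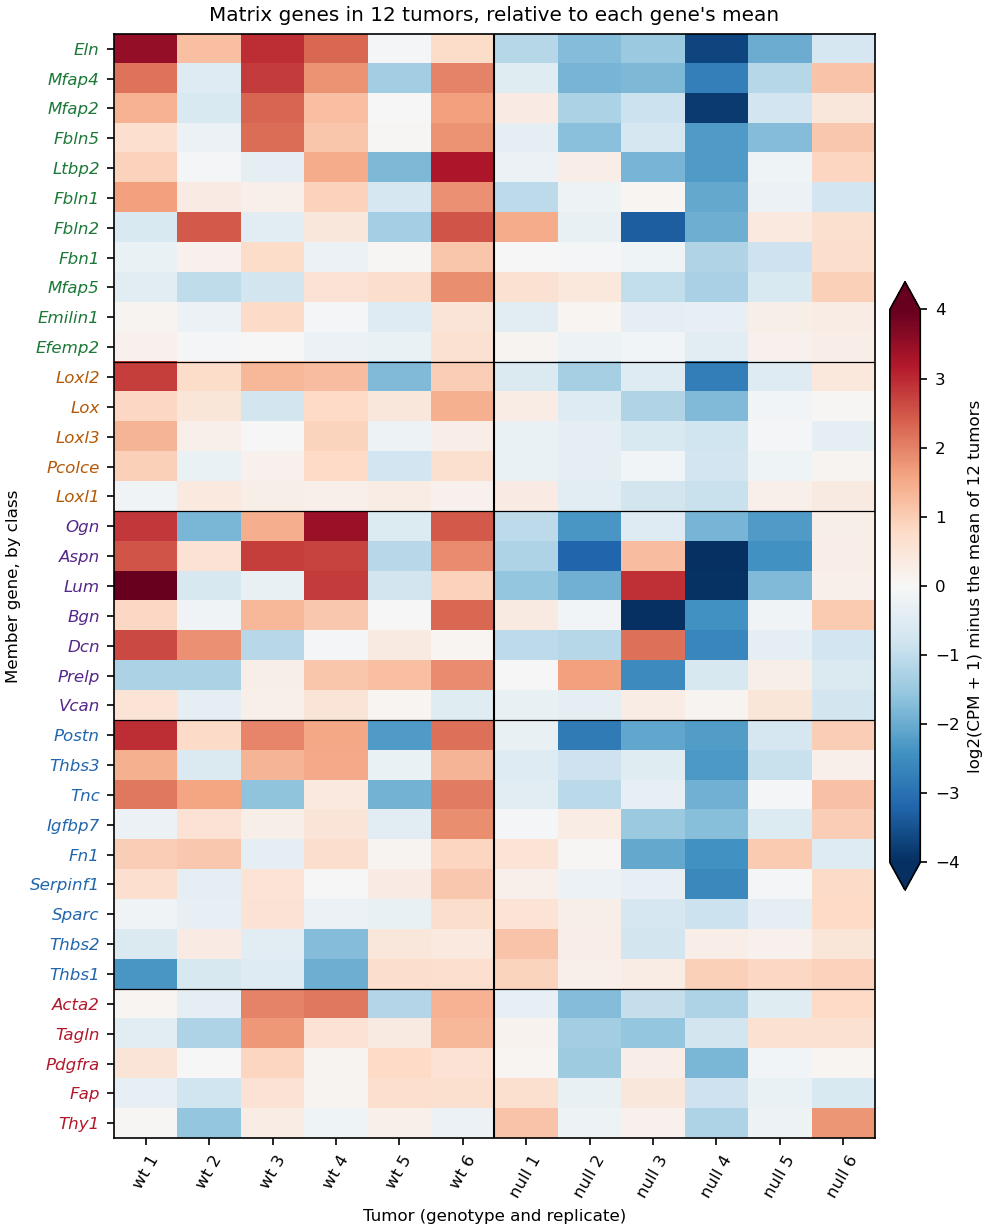
Log2(CPM + 1) of the 37 genes (vertical axis, by class) in 12 tumors (horizontal axis), minus the mean of each gene over the tumors. Red is higher and blue lower, and the color scale stops at 4 in either direction. Arf6-null replicate 4 holds the lowest value of all tumors for 25 of 37 genes.

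Single tumors stood out across classes. Arf6-null replicate 4 had the lowest value of all 12 tumors for 25 of the 37 genes, and its median deviation from the gene means was -1.84 on the log2(CPM + 1) scale. The members together took 0.876% of the counts of that tumor and 1.20% to 2.19% in the other Arf6-null tumors. Arf6-null replicate 6 was the highest of its genotype for 23 genes. A list of 10 keratinocyte genes summed to 24.4 CPM in that tumor, against 3.72 to 8.15 CPM in the other tumors of both genotypes, and its part was not tested. Among wild-type tumors, replicate 6 was the highest for 12 genes and replicate 1 for 9, and replicates 5 and 2 were the lowest for 16 and 12. The members took 1.62% to 2.97% of the counts of the wild-type tumors, a range that overlaps that of the Arf6-null tumors. Wild-type replicate 5 is also the tumor numbered 20681, while the other wild-type tumors were numbered 5526 to 7657 and the Arf6-null tumors 19836 to 20570. Apart from replicate 5, genotype and whatever the tumor numbers stand for cannot be told apart. Without the library of wild-type replicate 5 the members called lower numbered 5 (Eln, Fbln1, Loxl2, Loxl3 and Thbs3), against 3.27% of all genes called in either direction. Without Arf6-null replicate 6 there were 4 (Eln, Fbln5, Mfap4 and Thbs3), against 4.12% of all genes called in either direction. Leaving out wild-type replicate 2 gave 3 (Eln, Ogn and Thbs3), against 4.69% of all genes. Leaving out Arf6-null replicate 4 gave 1, Eln, against 0.422%. Leaving out wild-type replicate 1 or 6 gave 0, against 0.164% and 0.165%.

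Levels can be compared between genes per length of exon. Sparc had the highest level of the members in both genotypes, 705 CPM per kb in wild-type and 688 CPM per kb in Arf6-null tumors. It made up 17.5 ± 3.66% of the summed level per kb of the members in wild-type and 21.7 ± 4.36% in Arf6-null tumors (SD, n = 6 each). Fn1 made up 7.98 ± 3.20% and 5.95 ± 4.65%, Thbs1 4.68 ± 3.96% and 12.5 ± 6.09%, Thy1 6.68 ± 2.89% and 12.2 ± 4.90%, and Postn 4.94 ± 3.14% and 1.12 ± 0.771%. The level of Eln went from 30.1 to 2.04 CPM per kb. These shares were not tested.

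Relatives within a family were also compared with each other, by the log2 ratio of a pair in each tumor. The scaling of the libraries cancels in this ratio except through the prior count, which matters most for genes with few counts. The families, lysyl oxidases, thrombospondins, fibulins and microfibril proteins, gave 18 pairs and were set after the values had been seen. None had an adjusted p under 0.05 in an exact permutation test over 924 splits, two-sided. The smallest p was that of Thbs1 against Thbs3, whose log2 ratio was 4.37 ± 1.92 in wild-type and 7.43 ± 1.03 in Arf6-null tumors (exact permutation p = 0.00649, adjusted p = 0.0909, SD, n = 6 each). Fbln1 against Efemp2 was 0.22 ± 0.73 in wild-type and -1.16 ± 0.73 in Arf6-null tumors (exact permutation p = 0.0108, adjusted p = 0.0909). Among lysyl oxidases the difference was largest for Loxl1 against Loxl2, 1.45 on the log2 scale (exact permutation p = 0.0952, adjusted p = 0.190).

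The wider matrix was described with gene lists that hold no member. The background for counts at an unadjusted p, here and for the cell markers below, was 12.4% of all tested genes lower and 11% higher. Among 44 tested matrix glycoproteins, 1 was called lower and 0 higher, with 14 lower and 2 higher at an unadjusted edgeR p under 0.05 and a median log2 fold change of -0.39. The gene called was Hmcn1, which encodes hemicentin-1, a large basement membrane protein. Its mean fell, from 28.9 ± 7.50 CPM to 7.81 ± 4.05 CPM (log2 fold change -1.88 with SE 0.34; adjusted p = 0.0293 in edgeR), and was called in 6 of the 12 fits that left out 1 library. It lost the call with Y-linked expression as a covariate, without the 3 muscle-rich libraries and with the muscle level as a covariate (edgeR adjusted p = 0.0758, 0.145 and 0.136).
Among 13 other proteoglycans 4 were lower at an unadjusted p and none was called, with a median of -1.12. Fmod, which encodes fibromodulin, a collagen-binding relative of lumican, was at 28.3 ± 31.4 and 0.838 ± 0.883 CPM (edgeR adjusted p = 0.0545), and Hapln3, which encodes a hyaluronan link protein, at 2.17 ± 2.17 and 0.309 ± 0.258 CPM. For 12 collagens the median was -0.74, with 2 lower at an unadjusted p. Col14a1, a collagen on the surface of fibrils, was at 93.8 ± 87.2 and 12.5 ± 14.0 CPM, and Col1a2, a chain of type I collagen, at 2949 ± 1638 and 1170.5 ± 827 CPM (edgeR adjusted p = 0.0932 and 0.181).
Enzymes of collagen synthesis, 22 of them, had a median of -0.09, with 5 higher and 1 lower at an unadjusted p and none called. P4ha2, a prolyl hydroxylase subunit, was at 44.5 ± 16.1 and 79.7 ± 34.0 CPM, and the lysyl hydroxylase gene Plod1 at 235 ± 96.4 and 383 ± 104 CPM (edgeR adjusted p = 0.144 and 0.162).

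**Figure D4:**
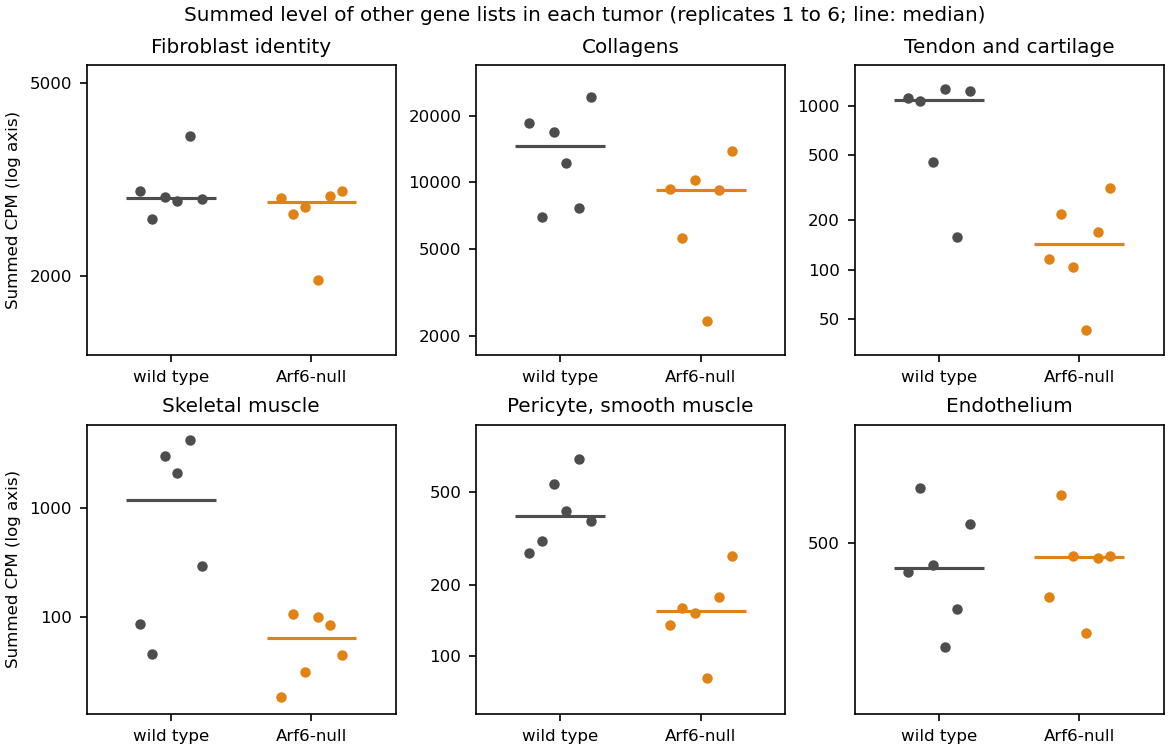
Summed CPM of 6 gene lists in each tumor (vertical log axis) by genotype (horizontal axis). Points are tumors, replicates 1 to 6 from left to right, and lines are medians. Fibroblast identity sums have medians of 2896 and 2838 CPM although 15 of its 19 tested genes have negative log2 fold changes, and the pericyte and smooth muscle sums do not overlap but do so without Des.

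Markers of cell types moved unequally beside the matrix genes. A list of 20 fibroblast identity genes without members summed to 2621, 2896 and 3891 CPM (lowest, median, highest) in wild-type and to 1960, 2838 and 2992 CPM in Arf6-null tumors. The sums were led by abundant genes such as Gsn, which encodes gelsolin and was at 867 and 909 CPM on average. Gene by gene, 15 of the 19 tested had negative log2 fold changes, with a median of -0.44, and 4 were lower and 1 higher at an unadjusted p. Among these 19 genes 1 was called lower, Islr, an immunoglobulin and leucine-rich protein of fibroblasts, which fell from 98.7 ± 42.9 to 28.0 ± 12 CPM (edgeR adjusted p = 0.0448). Tendon and cartilage markers summed to 158, 1086 and 1261 CPM in wild-type and to 43.0, 143 and 314 CPM in Arf6-null tumors, with 2 of 8 tested genes called lower. These were Tnmd, the tendon marker tenomodulin, and Cilp2, both with few counts. Tnmd was at 0.410 to 14.0 CPM in wild-type tumors and Cilp2 at a median of 0.780 and a maximum of 8.71 CPM. In Arf6-null tumors neither exceeded 0.151 CPM. The list also holds Fmod, which is counted among the proteoglycans above. Wild-type replicate 5 was the low wild-type tumor for this list, as it was for Eln. All 19 skeletal muscle genes were lower at an unadjusted p, and 1 of them was called, the parvalbumin gene Pvalb (edgeR adjusted p = 0.0392). Endothelial markers summed to 288 to 671 CPM and 311 to 645 CPM. Of these 13 genes 10 had negative log2 fold changes, with a median of -0.73, and 5 were lower and 1 higher at an unadjusted p. The higher one was Esam, an endothelial adhesion molecule, with means of 39.2 and 129.7 CPM. Of 5 tested adipocyte genes all 5 had negative log2 fold changes, with a median of -2.87 and 3 lower at an unadjusted p, and the list had median sums of 53.7 and 24.2 CPM. Macrophage markers summed to 1539 to 4905 CPM and 1968 to 3114 CPM, with 11 of 12 log2 fold changes negative, a median of -0.32 and none at an unadjusted p under 0.05. No gene was called in the endothelial, adipocyte or macrophage lists. The part of these cell types in the values of the matrix genes was not tested.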

How the data were processed

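Total RNA (Direct-zol kit) went into TruSeq Stranded mRNA libraries, per the labels' protocols. The authors deposited raw counts of reads per Ensembl gene. Per the submitters' processing notes, the tools were STAR 2.7.3a, featureCounts 1.6.3 and DESeq2 1.26.0, with the mouse build GRCm38. The strand setting of the counter and its annotation were not given in the sources used here. Symbols, coordinates and exon lengths came from GENCODE M21 (GRCm38). Columns were matched by the library name in the titles and grouped by the genotype label.

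Genes were filtered with filterByExpr (minimum count 10), which left 16225, normalized by TMM factors and tested by quasi-likelihood in edgeR 4.0.16 (R 4.3.3), with Benjamini-Hochberg adjustment over all tested genes and a threshold of 0.05. CPM were computed from the deposited counts. Log ratios used a prior count of 2. The SE of an edgeR log2 fold change was derived from the test, as its absolute value over the square root of the F statistic. Alternatives used DESeq2 1.42.0 and limma 3.58.1, other scalings and filters, covariates and each library left out. On simulated counts for this comparison, with 16043 genes, edgeR called 44.9% of 2-fold and 71.7% of 4-fold changes, with 3 false calls among 118. DESeq2, on 16225 genes, made 39 false calls among 180.

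The members and lists were chosen with earlier results of these data known. Values are given in full for the 3 members of each class with the smallest p, those with the largest change in either direction and 6 fixed members, and for 2 genes of each pathway list with the smallest p. Other genes named were chosen after their values were seen. The closest of the 66 pairs of libraries had a chi-square of 84.6 per degree of freedom, so no library was counted as a repeat.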

Additional observations from a re-analysis of the deposited data

Results flagged for a closer look

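In each genotype the highest and the lowest of the 6 values of each member were compared with the nearest other value, on the log2(CPM + 1) scale. Of 74 sets examined, 2 held a value far from the others, where chance alone gives about 1 in 20. Serpinf1 was at 73.8 CPM in Arf6-null replicate 4, against 352 to 751 CPM in the other Arf6-null tumors. Thy1 was at 289 CPM in wild-type replicate 2, against 719 to 1032 CPM in the other wild-type tumors.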

How the results depend on the processing

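The median log2 fold change of the members kept its direction in every alternative, with a range of -1.13 to -0.74 when 1 library was left out. The number lower at an unadjusted p was 15 in the reported fit and 13 to 20 when 1 library was left out. It was 12 with either covariate and without the 3 muscle-rich wild-type libraries. Counts of calls moved more. Over all genes 186 were called, 95 higher, and 25 to 766 when 1 library was left out, 2215 with DESeq2, 931 with limma-voom, 30 with Y-linked expression as a covariate, 35 without the 3 muscle-rich wild-type libraries and 22 with the muscle level as a covariate. With upper-quartile scaling 210 were called, 87 of them higher. Of the members 1 was called, 0 to 5 when 1 library was left out and 10 with DESeq2. With limma-voom 3 were called (Eln, Aspn and Thbs3), against 5.74% of all genes called in either direction. At a threshold of 0.1 there were 5, but the share of all genes at that threshold was not counted, so this number has no background. The count was 0 with no filter, with Y-linked expression as a covariate, without the 3 muscle-rich libraries and with the muscle level as a covariate, where the adjusted p of Eln was 0.0557, 0.0684, 0.0852 and 0.0793 and its log2 fold change -3.85, -3.81, -3.96 and -4.36, against -3.88 in the reported fit. Members higher at an unadjusted p numbered 0, and 1 with DESeq2, 1 with limma-voom, 2 with the Y-linked covariate and 0 to 1 when 1 library was left out. Members whose genotypes did not overlap numbered 1, and 1 to 4 when 1 library was left out. The share of all genes was counted only with all 12 libraries, 1.21% lower and 1.15% higher. The counts with 1 library left out therefore have no background and are not read as a result about the members. The log2 fold change of Sparc turned positive with the Y-linked covariate (0.26), without wild-type replicate 3 or 6 (0.078 and 0.12) and without Arf6-null replicate 3, 4 or 5 (0.083, 0.097 and 0.039), and ran from -0.24 to 0.12 when 1 library was left out. With the muscle level as a covariate those of Tagln (0.083), Prelp (0.58), Fap (0.051) and Vcan (0.010) turned positive. That of Vcan also did without the 3 muscle-rich libraries (0.019), that of Efemp2 with the Y-linked covariate (0.052) and without wild-type replicate 6 (0.068), and that of Mfap5 without wild-type replicate 6 (0.094). The cause was not tested. The muscle alternatives were chosen after seeing the data. No paired analysis was possible because, although the design text calls the tumors matched, no label ties a tumor of one genotype to one of the other.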

Other observations

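Arf6-null replicate 3 split the small leucine-rich proteoglycans. Dcn and Lum, neighbors on chromosome 10, were at 1888.7 and 361 CPM there, against 66.0 to 321 CPM and 2.11 to 54.6 CPM in the other Arf6-null tumors. In the same tumor Bgn was at 35.6 CPM, against 114 to 1277 CPM in the others, and Prelp at 0.713 CPM, against 5.48 to 30.2 CPM. The elastic fiber gene Fbln2 was at 13.1 CPM, against 35.1 to 388 CPM. Among wild-type tumors Dcn and Lum were both highest in replicate 1, at 2544 and 778 CPM. Kera, which encodes keratocan and lies beyond Lum on chromosome 10 at 97606879 to 97613692 of GRCm38, was not tested, with at most 44.6 CPM in a wild-type tumor and 0.0891 CPM in an Arf6-null tumor.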
